A study of Mus musculus with 6 samples.

Results

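The genes described here encode the receptors, vesicular and uptake transporters and synthesis enzymes of glutamate and GABA signalling. A list of 42 mouse genes was taken, and a gene was kept when at least 3 cytosines in CpGs, each read at least 10 times in all 6 libraries, lay in it or within 1 kb of either end. This left 41 genes, 26 of glutamate and 15 of GABA signalling, among 17342 genes that pass the same rule. Gabra6, a GABA-A receptor subunit, had no such cytosine. DNA methylation was measured by reduced representation bisulfite sequencing of male mouse germ cells, which reads the cytosines near fixed restriction sites and so favours CpG-rich DNA. There were 3 libraries from CSDS mice and 3 from Control mice. CSDS is the usual short form of chronic social defeat stress, a procedure of repeated encounters with a larger aggressive male. Strain, age, germ cell stage and purity are not given in the sources used here, nor whether each replicate is its own animal. The p-values therefore reflect the spread between these libraries alone. The question the comparison addresses is whether DNA methylation in the germ line differs after social defeat.

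Glutamate is the main fast excitatory transmitter of the brain and GABA the main inhibitory one. Glutamate acts on ion channels of the AMPA, kainate and NMDA classes and on metabotropic receptors that signal through G proteins. GABA acts on chloride channels of the GABA-A class and on the G-protein-coupled GABA-B receptor. These genes are known mainly from neurons and glia. In mammals a CpG-dense start of a gene is usually unmethylated whether or not the gene is active, while the body of a gene is usually methylated.

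All levels below are the mean, over the cytosines of a region, of the percent of reads that show C, which bisulfite leaves as C when the cytosine is methylated. Differences are CSDS minus Control in percentage points. The libraries listed between 2420308 and 3156788 cytosines with a median coverage of 44 to 50 reads, and 2206320 cytosines were used. CSDS replicates 2 and 3 stood apart from the other 4 libraries at mitochondrial CpGs, DNA that is largely unmethylated. There the median percent read as C over 27 cytosines was 8.50, 4.41 and 4.53 in CSDS replicates 1, 2 and 3, against 8.90, 8.84 and 10.04 in the Control libraries. The median over all gene-end windows was also lowest in CSDS replicates 2 and 3, at 15.4%, 10.6% and 11.2% in CSDS and 16.2%, 16.8% and 16.2% in Control. Among the Control libraries it did not follow this share, which was highest in replicate 3, while the median was highest in replicate 2. Results are also given after a correction that takes the share out of every library, and medians also for CSDS replicate 1 set alone against the Control mean. Corrected, the medians over all gene-end windows were 7.55%, 6.53% and 6.97% in CSDS and 7.97%, 8.73% and 6.84% in Control. Starts of 14 germ-cell genes such as Ddx4 and Dazl, of which many are usually methylated in somatic tissue, had a median level of 18.3% in CSDS and 22.1% in Control, above the medians of 10.9% in CSDS and 14.7% in Control over all starts. Of these 14 starts 5 were under 20% in Control, against 78.4% of all starts. Ends of 3 immune-cell genes stood at 93.4% in CSDS and 94.8% in Control. None of these was an end known to be a start, so they do not compare with the starts above. Over all ends known to be stops the median was 89.7% in CSDS and 90.9% in Control.

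**Figure D1:**
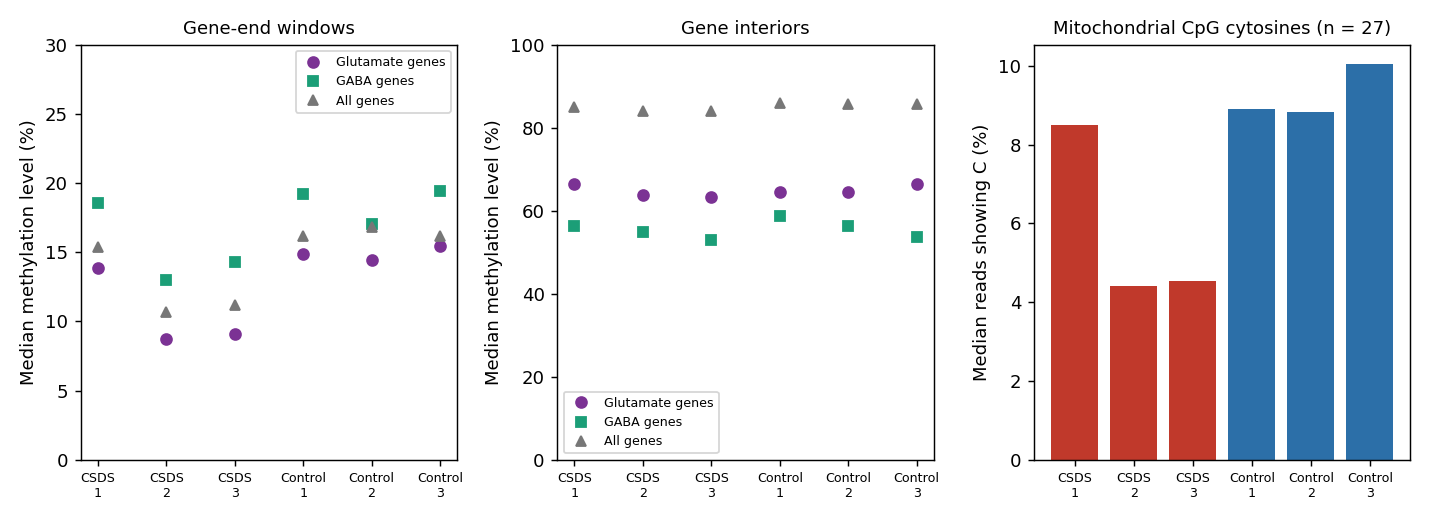
Median methylation level (%) in each library of gene-end windows (left) and gene interiors (centre) of glutamate genes, GABA genes and all genes, and the median percent of reads showing C at 27 mitochondrial CpG cytosines (right, bars from 0). In the end windows CSDS replicates 2 and 3 lie lowest for each set of genes and have mitochondrial shares of 4.41% and 4.53%.

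The promoters of Grik3 and Gabbr2 were almost wholly read and showed low methylation in both groups. RefSeq gives sequences of 300 bases, 250 before and 50 after a transcription start, for 34 of the 42 genes (42 promoters, assembly GRCm38.p6). Of these promoters, 18, in 17 genes, held at least 3 measured cytosines, and 13 of the 18 were under 20% in Control. The 42 promoters had a median of 12 CG dinucleotides on the strand of the gene, against 7 over all 32851 promoters of the table. The first pair of sequences shows the promoters with the most CGs in each class, at Grik3, a kainate receptor subunit, and Gabbr2, the GABA-B subunit that couples to the G protein. The other four are the promoters whose group means differed most. They belong to Gria2, the AMPA receptor subunit that keeps calcium out of the channel, Grik2, a kainate receptor subunit, Slc17a8, a vesicular glutamate transporter, and Grm3, a metabotropic receptor that inhibits transmitter release. Each is written 5′ to 3′ on the strand of its gene, and capitals mark CpGs with at least 1 measured cytosine.
Grik3, chr4:125490446-125490745, + strand: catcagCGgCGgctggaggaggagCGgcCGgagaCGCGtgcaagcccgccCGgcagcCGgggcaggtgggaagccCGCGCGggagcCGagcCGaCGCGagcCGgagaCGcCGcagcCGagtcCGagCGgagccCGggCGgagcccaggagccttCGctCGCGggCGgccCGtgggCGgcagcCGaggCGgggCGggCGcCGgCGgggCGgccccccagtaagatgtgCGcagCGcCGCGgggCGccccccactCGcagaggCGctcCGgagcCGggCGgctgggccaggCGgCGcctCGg
Gabbr2, chr4:46991665-46991964, − strand: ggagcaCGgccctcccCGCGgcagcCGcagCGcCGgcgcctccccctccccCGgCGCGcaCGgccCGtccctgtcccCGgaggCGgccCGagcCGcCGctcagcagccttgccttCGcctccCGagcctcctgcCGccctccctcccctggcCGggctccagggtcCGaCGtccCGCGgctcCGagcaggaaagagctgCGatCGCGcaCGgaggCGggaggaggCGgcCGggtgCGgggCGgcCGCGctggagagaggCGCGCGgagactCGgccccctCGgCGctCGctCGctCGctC
Gria2, chr3:80802786-80803085, − strand: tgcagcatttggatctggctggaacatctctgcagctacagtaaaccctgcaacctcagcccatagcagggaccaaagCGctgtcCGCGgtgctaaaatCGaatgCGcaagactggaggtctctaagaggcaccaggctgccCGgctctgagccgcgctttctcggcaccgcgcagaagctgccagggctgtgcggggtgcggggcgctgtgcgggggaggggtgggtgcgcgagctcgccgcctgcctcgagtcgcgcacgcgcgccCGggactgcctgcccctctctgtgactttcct
Grik2, chr10:49788705-49789004, − strand: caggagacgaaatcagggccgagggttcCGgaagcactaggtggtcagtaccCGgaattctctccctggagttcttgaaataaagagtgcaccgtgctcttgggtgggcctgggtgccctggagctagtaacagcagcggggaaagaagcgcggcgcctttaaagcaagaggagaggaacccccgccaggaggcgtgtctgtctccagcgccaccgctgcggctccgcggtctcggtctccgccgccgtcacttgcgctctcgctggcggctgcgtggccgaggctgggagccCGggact
Slc17a8, chr10:89621200-89621499, − strand: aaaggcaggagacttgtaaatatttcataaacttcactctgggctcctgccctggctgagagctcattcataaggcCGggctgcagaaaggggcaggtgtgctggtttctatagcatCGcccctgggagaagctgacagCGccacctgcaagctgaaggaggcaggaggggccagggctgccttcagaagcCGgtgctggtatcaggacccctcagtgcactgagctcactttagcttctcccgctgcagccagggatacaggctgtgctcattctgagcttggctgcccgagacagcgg
Grm3, chr5:9725303-9725602, − strand: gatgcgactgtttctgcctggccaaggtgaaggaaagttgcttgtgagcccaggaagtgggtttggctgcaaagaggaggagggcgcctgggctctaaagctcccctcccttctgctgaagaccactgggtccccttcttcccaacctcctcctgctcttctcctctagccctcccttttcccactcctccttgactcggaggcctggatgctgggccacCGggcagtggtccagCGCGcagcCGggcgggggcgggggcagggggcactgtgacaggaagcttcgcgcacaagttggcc

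In the Grik3 promoter 49 of 50 CpGs were measured, and its level was 10.3%, 6.54% and 6.75% in the CSDS libraries, against 9.25%, 10.3% and 9.50% in the Control libraries. In the Gabbr2 promoter 45 of 46 CpGs were measured, and its level was 8.91%, 5.03% and 5.13% in CSDS, against 9.50%, 9.63% and 9.26% in Control. Both stood within 3 points of the mitochondrial share of each library, and the groups overlapped at Grik3 but not at Gabbr2, where the difference of −3.10 points was 0.36 after correction. The Gria2 promoter, with 7 of 26 CpGs measured, read 9.65%, 5.05% and 8.36% in CSDS, against 10.9%, 19.9% and 18.1% in Control. Its difference was −8.64 points, and −5.81 after correction. The Grik2 promoter differed most, by −9.68 points, and by −8.29 after correction. It rests on 3 of 26 CpGs and 121 to 195 reads per library, with 47.8%, 37.5% and 42.6% in CSDS and 56.1%, 49.7% and 51.2% in Control. Slc17a8 had 14.3% ± 4.75 in CSDS and 22.2% ± 3.63 in Control (SD, n = 3 each), a difference of −7.95 points that was −5.25 after correction. As deposited, all CSDS libraries lay below all Control libraries at Gria2, Grik2 and Slc17a8. After correction this held at Grik2, while the groups overlapped at Gria2 and Slc17a8. Grm3 is described with its gene-end window below, which holds the same 6 cytosines. Promoters as such were not tested. The end windows, interiors and tiles below were.

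Gene ends were then compared in windows of 1 kb either side of each annotated end, and the member genes had 43 windows with at least 3 cytosines, 28 of glutamate and 15 of GABA genes. The window is called start or stop where RefSeq gives the strand, and lower or upper by coordinate for Gria1, Grin2a, Grin2b, Grin3a, Grm4 and Gabrd. Of 28 start windows 21 were under 20% in Control, a share of 75%, against 78.4% of all 10904 start windows. The 7 starts above that level in Control were Grik5 (91.3%), Gabrr2 (83.7%), Gabrr1 (52.7%), Slc17a8 (40.1%), Grin2d (35.9%), Gad2 (30.8%) and Gria4 (21.6%). At several of these genes the RefSeq start lies inside the annotated bound, beyond the 1 kb that the window reaches. The distance is 3325 bp in Grik5, 5400 bp in Gabrr2, 4513 bp in Grin2d and 1312 bp in Gad2. The windows of these genes therefore do not hold that start. At Grik5 the window also holds part of another gene, Zfp574. The RefSeq promoter of Grik5 read 29.2% in Control, on 4 cytosines. Low stop windows were common among the members with a measured stop: 6 of 8 were under 20% in Control, against 18.5% of all 3568 stop windows, whose median was 90.9%. They belong to the NMDA receptor genes Grin1, Grin2c and Grin2d, the kainate receptor gene Grik5, the vesicular glutamate transporter gene Slc17a7 and the vesicular GABA transporter gene Slc32a1. The annotation places part of another gene in the window at Grin1 (Lrrc26 and Grin1os), Grin2d (Grwd1) and Slc17a7 (Gfy), and none at Grin2c, Grik5 or Slc32a1. Gabra4 and Gabrb1, neighbours that start towards opposite sides from a shared stretch, have the same 18 cytosines in their start windows, so that one measurement stands under both names.

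**Figure D2:**
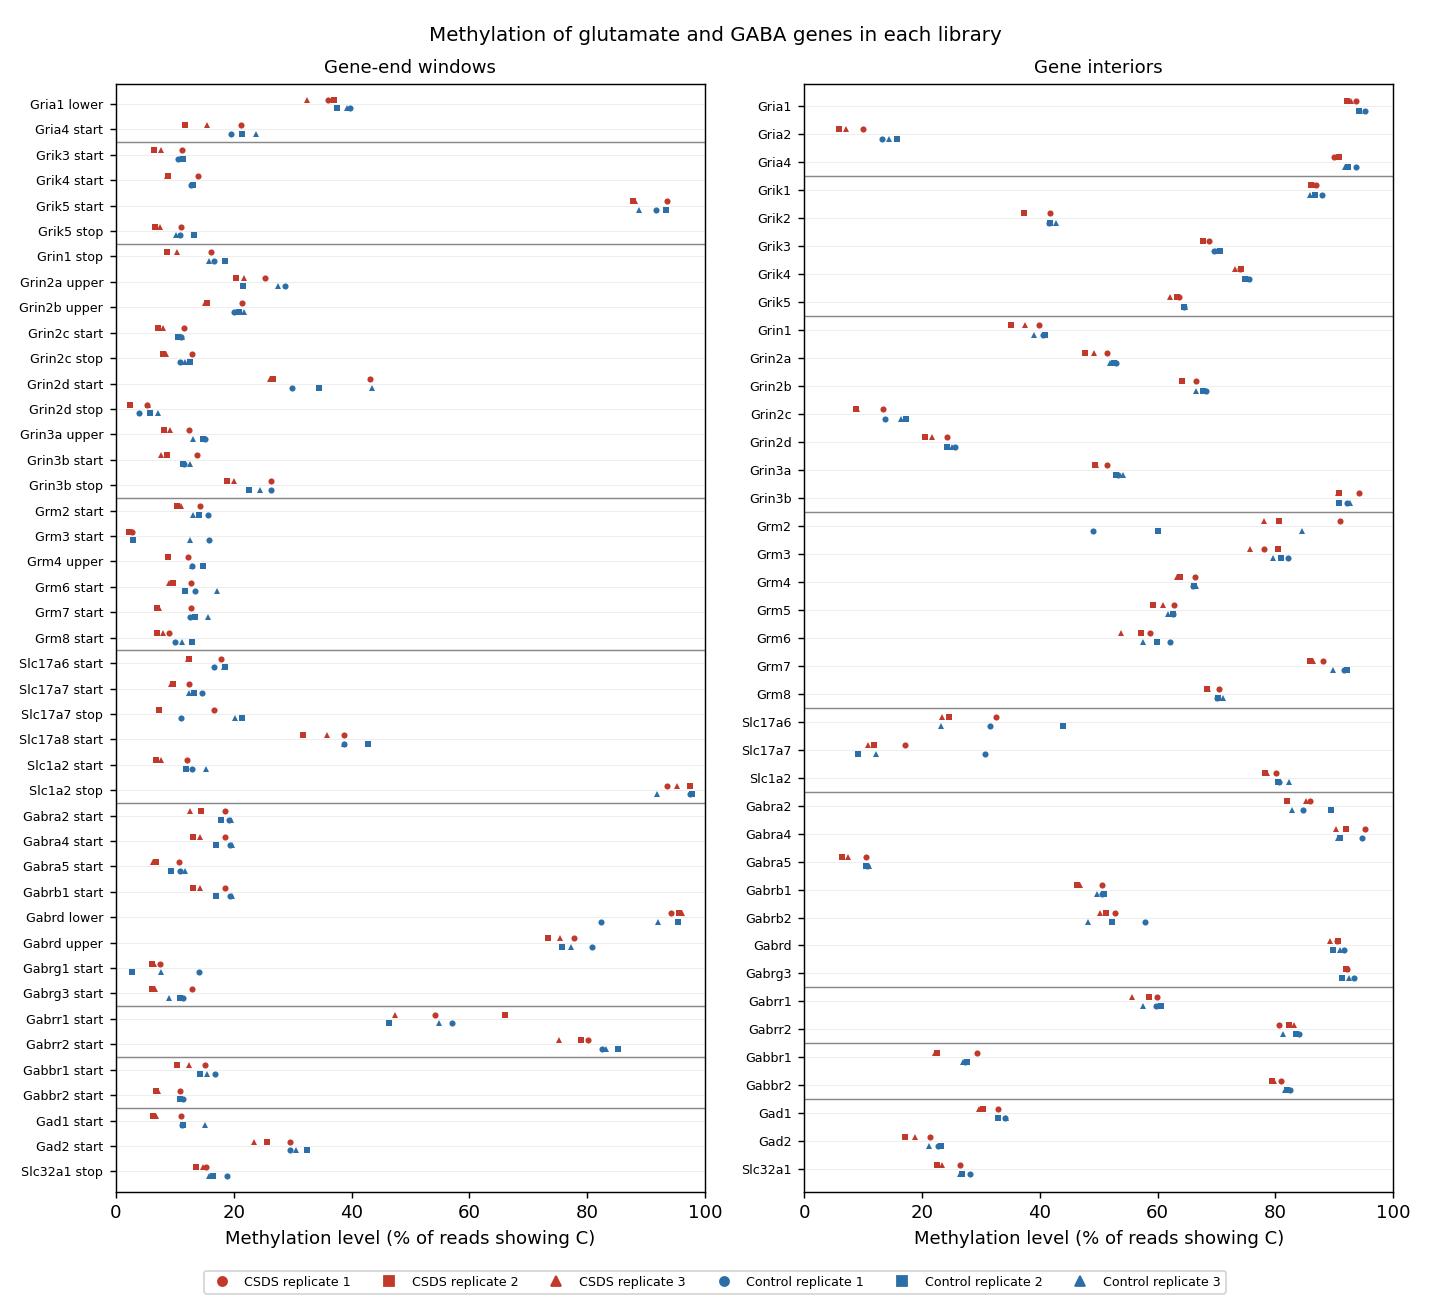
Methylation level (% of reads showing C) of every measured gene-end window (left) and gene interior (right) of the glutamate and GABA genes; each point is 1 library, CSDS in red above Control in blue, and lines part the gene families. Most end windows lie under 20%, while interiors spread over the whole range, and CSDS replicate 1 (red circles) often lies among the Control points.

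As deposited, gene ends were lower in CSDS in nearly all members, as they were across the genome. The CSDS mean was below the Control mean in 41 of 43 member windows, against 91.5% of all 18221 windows. In 10 of the 43 windows (23.3%) all CSDS libraries lay below all Control libraries, against 31.9% of all windows, and in 0 all CSDS libraries lay above, against 0.499%. No window was called, among the members or among all 18221 (0%), in a quasi-binomial F test moderated by limma, where a call needed both a Benjamini-Hochberg adjusted p below 0.05 and group means at least 10 points apart. At an unadjusted p under 0.05 there were 11 member windows (25.6%), against 34.3% of all windows. With limma on log2 ratios of the reads 13 of all windows were called and 0 members. Without CSDS replicate 1 the F test called 268 of all 18221 windows, and 1 of the 43 member windows, the stop of Slc17a7. Without that library groups did not overlap in 38 member windows (88.4%), against 77.1% of all. That number was 16 (37.2%) without Control replicate 1, against 42.7% of all, and 20 (46.5%) without Control replicate 2, against 39.8% of all.

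Glutamate gene ends had a median level of 10.4% in CSDS and 14.2% in Control, and a median difference of −3.51 points over 28 windows, all 28 lower in CSDS, beside −3.21 over all windows. After correction the CSDS mean was lower in 25 of the 43 member windows, against 58.8% of all. The corrected median over glutamate windows was −0.458, beside −0.317 over all windows, and the median for CSDS replicate 1 alone against the Control mean was −0.557. Both AMPA receptor windows were above 20% in Control. Gria4 had 21.2%, 11.8% and 15.5% at its start in CSDS, against 19.6%, 21.4% and 23.8% in Control, with CSDS replicate 1 inside the Control range and a difference of −5.42 points, and of −2.55 after correction (adjusted p = 0.311, quasi-binomial F test). Among the 4 kainate receptor windows the median difference was −2.48 as deposited, 0.551 after correction and 0.605 for CSDS replicate 1 alone, so its sign differs between them. The starts of Grik3 and Grik4 and the stop of Grik5 lay between 6.50% and 13.9% in CSDS and between 10.2% and 13.3% in Control.

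The 10 NMDA receptor windows had a median difference of −3.09 points as deposited and −0.159 after correction, where 5 of the 10 were lower in CSDS, and CSDS replicate 1 alone gave 0.535. At the stop of Grin1, which encodes the subunit every NMDA receptor needs, 118 cytosines read 16.1%, 8.63% and 10.4% in CSDS, against 16.6%, 18.5% and 15.8% in Control. CSDS replicate 1 was within the Control range and the other CSDS libraries were below it (difference −5.27, and −2.20 after correction; adjusted p = 0.138, quasi-binomial F test). Grin2d, a subunit of slow NMDA receptors, had the lowest level of the glutamate windows at its stop, 4.34% ± 1.74 in CSDS and 5.63% ± 1.66 in Control (SD, n = 3 each) over 5 cytosines. Its difference was −1.29 as deposited and 2.41 after correction, so its direction depends on the correction. The corrected means of −1.58% in CSDS and −3.99% in Control lie below 0, where no level can be. At the upper end of Grin3a, a glycine-binding subunit, 81 cytosines read 12.3%, 8.14% and 9.23% in CSDS, against 15.1%, 14.8% and 13.1% in Control. Those groups did not overlap as deposited, and the difference of −4.41 was −1.21 after correction. After correction 2 of the 28 glutamate windows had groups that did not overlap, the starts of Grin2c (1.39) and Grin3b (1.60). Both had CSDS above Control, although both CSDS means were below the Control means as deposited.

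All 6 metabotropic receptor windows were under 20% in Control, and their median difference was −3.62 points, −0.377 after correction and −1.33 for CSDS replicate 1 alone. Grm3 had the largest difference of the glutamate windows, −7.82 points, from 6 cytosines and 138 to 257 reads per library. Its start read 2.80%, 2.26% and 2.68% in CSDS, against 15.8%, 2.90% and 12.6% in Control. The groups did not overlap as deposited, but Control replicate 2 lay within 1 point of the CSDS libraries. After correction the groups overlapped, the difference was −4.74 and the CSDS mean was −3.47%, below any possible level. The adjusted p was 0.278 (quasi-binomial F test). Grm8 and Grm4, receptors that lower transmitter release, also had groups that did not overlap, with differences of −3.46 and −3.61, and of −0.119 and −0.342 after correction.

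The 6 transporter windows had a median difference of −4.06 points as deposited, −0.889 after correction and −1.20 for CSDS replicate 1 alone. Slc17a7, which loads glutamate into vesicles of cortical neurons, read 16.6%, 7.35% and 7.29% at its stop in CSDS, against 11.1%, 21.4% and 20.2% in Control. The groups overlapped through 1 library of each, and the difference was −7.14, and −4.20 after correction, where they still overlapped (adjusted p = 0.1995, quasi-binomial F test). Without CSDS replicate 1 it was −10.2, with an adjusted p of 0.00069, and the CSDS libraries left in that fit are those with the low mitochondrial shares. Slc1a2, which clears glutamate into astrocytes, had 12.0%, 6.87% and 7.58% in its start window in CSDS, against 12.9%, 11.8% and 15.2% in Control, over 150 cytosines. The RefSeq start listed for Slc1a2 lies 48199 bp inside the annotated bound, so that window does not hold it. The stop of Slc1a2 was the most methylated glutamate window, at 95.4% ± 1.94 in CSDS and 95.7% ± 3.38 in Control (SD, n = 3 each) over 4 cytosines.

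GABA gene ends had a median level of 15.2% in CSDS and 18.7% in Control and a median difference of −2.85 points over 15 windows, 13 of them lower in CSDS. After correction the median was 0.340, on the other side of 0, and CSDS replicate 1 alone stood −0.261 from the Control mean. Gad1 and Gad2 encode the enzymes that make GABA from glutamate. The start of Gad1 read 11.1%, 6.21% and 6.72% in CSDS, against 11.3%, 11.4% and 15.2% in Control, a difference of −4.59 that was −1.35 after correction. The start window of Gad2, which does not hold its RefSeq start, read 29.5%, 25.7% and 23.4% in CSDS. Control read 29.6%, 32.4% and 30.55% there, a difference of −4.64 that was −2.11 after correction. At both genes CSDS replicate 1 lay just below the lowest Control library, and the groups overlapped after correction. The stop of Slc32a1, whose product loads GABA into vesicles, stood at 14.6% ± 0.949 in CSDS and 17.0% ± 1.59 in Control (SD, n = 3 each), with groups apart as deposited and a difference of 0.775 after correction.

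Among receptor genes the rho subunit Gabrr2, of GABA-gated channels known from the retina, was the only window of the 43 that had all CSDS libraries below all Control libraries both as deposited and after correction. Its start window, which does not hold the RefSeq start, has 14 measured cytosines. It read 80.1%, 79.0% and 75.3% in CSDS, against 82.5%, 85.2% and 83.2% in Control. The difference of −5.53 points was −5.18 after correction, and it did not pass the test (adjusted p = 0.219, quasi-binomial F test). After correction 7.8% of all windows had all CSDS libraries below, and 3.98% all CSDS libraries above. Gabrd, the delta subunit of receptors outside synapses, had the largest difference with CSDS above Control, 5.32 points at its lower end, where Control replicate 1 alone was low. The levels there were 94.2%, 95.5% and 96.1% in CSDS, against 82.3%, 95.5% and 92.1% in Control. The start of Gabrg1, a gamma subunit gene, had the lowest level of the GABA windows, 6.68% ± 0.697 in CSDS and 8.16% ± 5.65 in Control (SD, n = 3 each) over 4 cytosines, and its difference of −1.48 was 2.11 after correction, where the Control mean was −1.21%, below any possible level. The start of Gabbr1, the GABA-B subunit that binds GABA, and that of Gabbr2 differed by −2.89 and −2.85, and by 0.340 and 0.57 after correction.

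Gene interiors, the DNA more than 1 kb from both ends, were measured in 25 glutamate and 14 GABA genes. Of these interiors 33.3% were above 80% in Control, against 55.3% of all 13510. The most methylated was Gria1, an AMPA receptor subunit, at 92.9% in CSDS and 94.6% in Control among glutamate genes, and Gabra4 at 92.5% in CSDS and 92.1% in Control among GABA genes. At Gria1 all 8 tiles of 500 bp in the interior were above 80% in Control, and at Gabrg3 all 17. Other interiors were low in every tile read. At Gria2 all 4 interior tiles, and at Gabra5 all 3, were under 20%, and their RefSeq starts lie 1392 bp and 80957 bp inside the annotated bound.

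As deposited, 36 of 39 member interiors were lower in CSDS, against 82.2% of all interiors. In 16 of the 39 (41.0%) all CSDS libraries lay below all Control libraries, against 23.4% of all, and in 0 above, against 1.07%. No interior was called among the members or among all 13510 (0%) by the quasi-binomial F test or by limma, and 16 member interiors (41.0%) had an unadjusted p under 0.05, against 22.6% of all. Without CSDS replicate 1 the F test called 35 of all 13510 interiors, and how many of these are members is not given here. The number of member interiors with groups apart was then 26 (66.7%), against 51.7% of all. After correction 28 of the 39 were lower in CSDS, against 65.6% of all, and 8 of the 39 (20.5%) had all CSDS libraries below all Control libraries, against 10.1% of all, and 1, Gabra5, all CSDS libraries above, against 2.58%. Since the members were chosen with results known, these shares are a description. The members also differ from all interiors in level, with Control medians of 64.5% and 86.1%, and the shares are not matched for it. With at least 10 cytosines, 16 of 36 member interiors (44.4%) had all CSDS libraries below as deposited, against 26.6% of all.

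Of those 8 interiors, 7 are among the 25 glutamate genes (28.0%), those of Gria1, Gria2, Gria4, Grik3, Grin3a, Grm7 and Slc1a2, and 1, Gabbr2, is a GABA gene. The median difference over glutamate interiors was −2.60 points, and −1.17 after correction, beside −1.56 and −0.48 over all interiors. CSDS replicate 1 alone gave −0.949 for glutamate interiors and −0.494 for all. The 3 measured AMPA receptor interiors were in that group, 1 of them at a gene start. The cytosines of the Gria2 interior span chr3:80800331-80803098, around its RefSeq start, and include the 12 of the promoter printed above, so that both values share data. That interior read 10.04%, 5.83% and 7.14% over 47 cytosines in CSDS, against 13.2%, 15.8% and 14.4% in Control, so that each CSDS library was at least 3 points below each Control library. Its difference was −6.79, and −3.76 after correction (p = 0.00455, adjusted p = 0.122, quasi-binomial F test). Gria1 read 93.8%, 92.2% and 92.8% in CSDS, against 95.2%, 94.2% and 94.4% in Control, a difference of −1.69 that was −1.57 after correction. Gria4 stood at 90.5% ± 0.481 in CSDS and 92.6% ± 0.946 in Control (SD, n = 3 each).

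Grm7, a metabotropic receptor at release sites, read 88.0%, 85.9% and 86.3% in CSDS, against 91.6%, 92.1% and 89.9% in Control. The groups did not overlap and the difference was −4.44, and −4.33 after correction (adjusted p = 0.151, quasi-binomial F test). Slc1a2 read 80.03%, 78.2% and 78.6% in CSDS, against 80.7%, 80.5% and 82.3% in Control, a difference of −2.19 and of −1.56 after correction (adjusted p = 0.117, quasi-binomial F test). The largest difference of any member interior, 18.7 points, was at Grm2 and rests on 4 cytosines and 40 to 306 reads per library. It read 91.0%, 80.6% and 78.1% in CSDS, against 49.0%, 60.0% and 84.6% in Control, and Control replicate 3 lay among the CSDS libraries. Slc17a6, the vesicular transporter of subcortical neurons, likewise overlapped, with 26.8% ± 5.05 in CSDS and 32.9% ± 10.5 in Control (SD, n = 3 each) over 8 cytosines. Grin2c, the NMDA subunit known from the cerebellum, read 13.3%, 8.81% and 8.95% over 183 cytosines in CSDS, against 13.7%, 17.2% and 16.3% in Control, and overlapped after correction (difference −5.39, and −2.32 after correction).

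GABA interiors had a median difference of −1.69 points, and of −0.248 after correction. CSDS replicate 1 alone stood −0.233 from Control. Gabbr2 read 80.95%, 79.5% and 79.7% over 429 cytosines in CSDS, against 82.55%, 81.95% and 81.7% in Control. Its difference of −2.01 was −1.40 after correction, and its p was the lowest of the member interiors (p = 0.000546, adjusted p = 0.111, quasi-binomial F test). Among the genes of GABA synthesis and loading, Gad1 differed by −2.80, Gad2 by −3.19 and Slc32a1 by −3.02, and after correction all 3 were between −0.293 and −0.240 with overlapping groups. The 30 cytosines of the Slc32a1 interior span chr2:158610015-158611087, around its RefSeq start, and the Gad2 interior holds the RefSeq start of Gad2. These values are therefore not of the gene body alone. The interior of Gabra5, the GABA-A subunit known from the hippocampus, was the lowest at 8.07% ± 2.12 in CSDS and 10.7% ± 0.222 in Control (SD, n = 3 each) over 249 cytosines. There the groups were apart in opposite directions before and after correction, with −2.60 and 0.841 points.

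**Figure D3:**
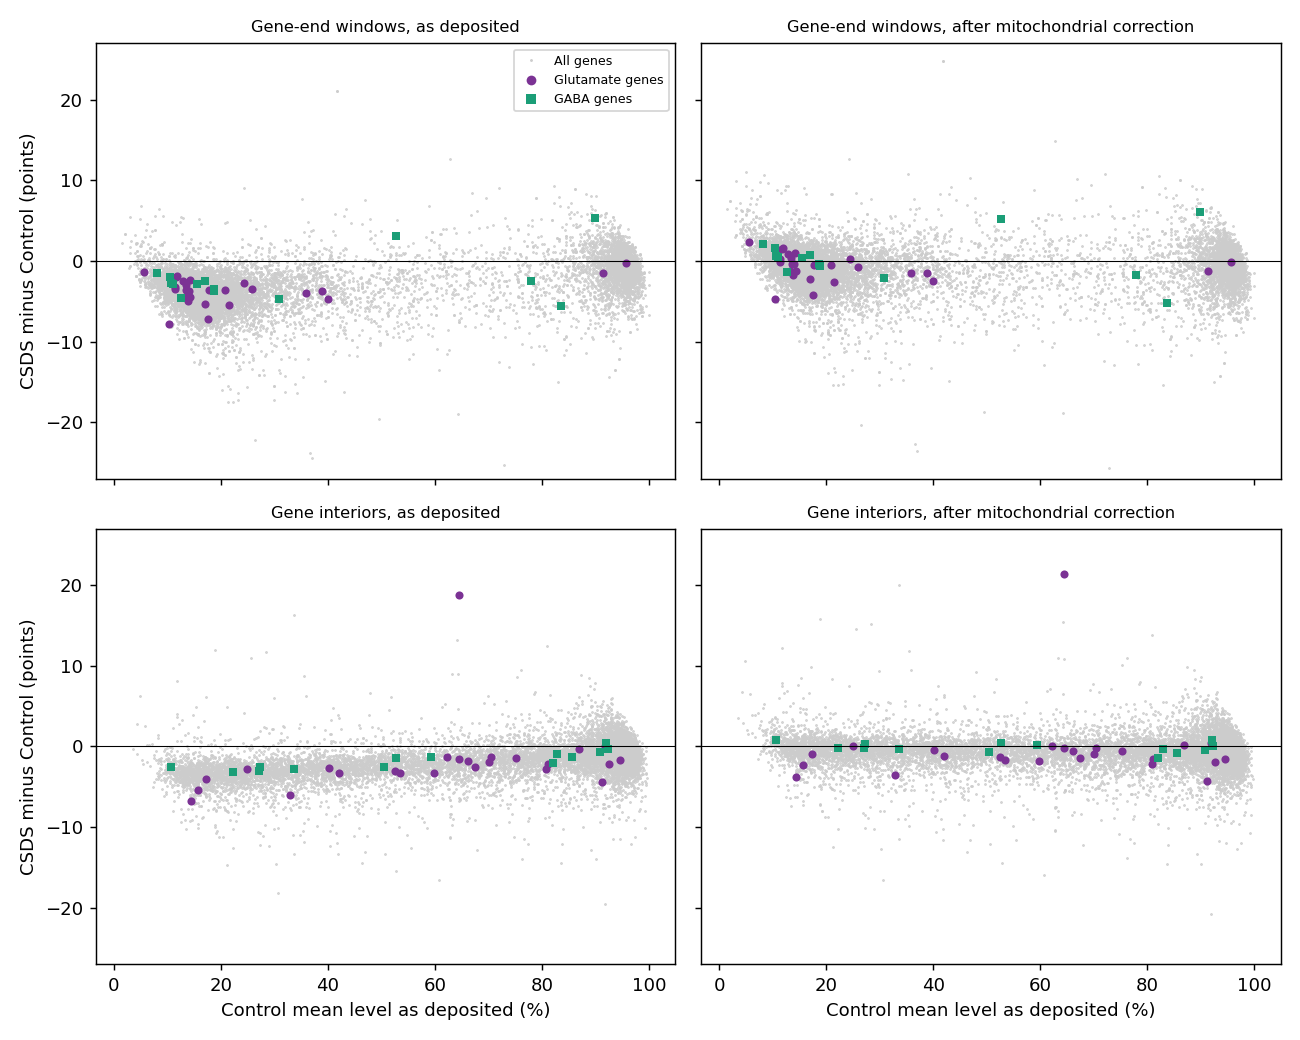
Difference of group means (CSDS minus Control, percentage points) against the Control mean level (%) for gene-end windows (top) and interiors (bottom), as deposited (left) and after correction for the mitochondrial share (right); grey points are all genes. As deposited the low-level windows of the glutamate and GABA genes lie below 0 with the grey points, and after correction they lie on both sides of 0.

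Tiles of 500 bp show where within a gene the values differ. The members and the 1 kb beyond their ends touched 509 tiles. Of these, as of all 162809 tested (0%), 0 were called by the quasi-binomial F test. There were 81 member tiles (15.9%) at an unadjusted p under 0.05, against 15.6% of all, and limma called 0 tiles. Without CSDS replicate 1 the F test called 2344 of all 162810 tiles, and 10 of the 509 member tiles. The CSDS mean was lower in 382 of the 509 tiles, against 73.7% of all, and in 296 after correction, against 58.5%. All CSDS libraries lay below all Control libraries in 78 member tiles (15.3%), against 15.7% of all, and above in 7 (1.38%), against 1.8%. After correction these numbers were 36, against 7.67% of all, and 17, against 3.7%. Among the tiles whose groups do not overlap, the 5 smallest p-values towards lower CSDS levels were at CpG-dense tiles of low level. One 28936 bp from the start of Grin1 and just beyond its stop, at chr2:25290001-25290500, read 9.99%, 3.18% and 4.78% over 60 cytosines in CSDS, against 12.8%, 19.0% and 14.2% in Control, with no overlap (difference −9.34, and −6.47 after correction; p = 0.00121, adjusted p = 0.174, quasi-binomial F test). The other four were at Grik3 (chr4:125491001-125491500, −6.96), Slc1a2 (chr2:102658501-102659000, −5.51), Grin2d (chr7:45830501-45831000, −5.14) and Grik4 (chr9:42897501-42898000, −3.92), each with an adjusted p of 0.174 in the same test. After correction the differences were −4.03 at Grik3, −2.40 at Slc1a2, −2.12 at Grin2d and −0.707 at Grik4. The groups stayed apart at the first 3 and overlapped at Grik4. The Grin2d tile only crosses the 1 kb limit beyond the stop with its border. Its cytosines all lie further out, outside the stop window of the gene. Of the 7 tiles with all CSDS libraries above all Control libraries, the 5 with the smallest p lay above 89% in both groups. They were 3 tiles of Grik4 (0.842, 4.15 and 2.26 points), 1 of Grik3 (1.38) and 1 of Grin2d (3.14), with adjusted p from 0.436 to 0.728 by the quasi-binomial F test.

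A few interior tiles of intermediate or high level differed by at least 10 points. They were chosen after their values were seen, as tiles where all CSDS libraries lay below all Control libraries and the difference reached that size both as deposited and after correction. There were 4 such member tiles (0.786%), against 0.606% of all tiles, and 0 with CSDS above by as much, against 0.0749%. In Gabbr2, of 56 interior tiles, 47 were above 80% in Control and 7 between 20% and 80%. One of the 7, 135963 bp from the start at chr4:46855501-46856000, read 43.8%, 39.6% and 47.0% over 9 cytosines in CSDS, against 63.7%, 58.0% and 57.1% in Control. All CSDS libraries, replicate 1 included, were at least 10 points below all Control libraries, and the difference was −16.1, and −15.5 after correction (p = 0.00389, adjusted p = 0.176, quasi-binomial F test; 154 to 487 reads per library). A second tile of that gene just misses that size after correction. At chr4:46833001-46833500 it read 33.4%, 35.5% and 36.6% in CSDS, against 49.6%, 43.9% and 43.4% in Control, and its difference of −10.5 was −8.99 after correction (adjusted p = 0.174, quasi-binomial F test). In Grm7 the tile at chr6:111546001-111546500, 900902 bp from the start, read 86.5%, 78.1% and 82.3% over 13 cytosines in CSDS, against 92.0%, 94.9% and 92.1% in Control (difference −10.7, and −11.0 after correction). The other tiles of this kind were in Slc1a2 (−13.4) and Grik3 (−12.8), on 3 cytosines each.

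**Figure D4:**
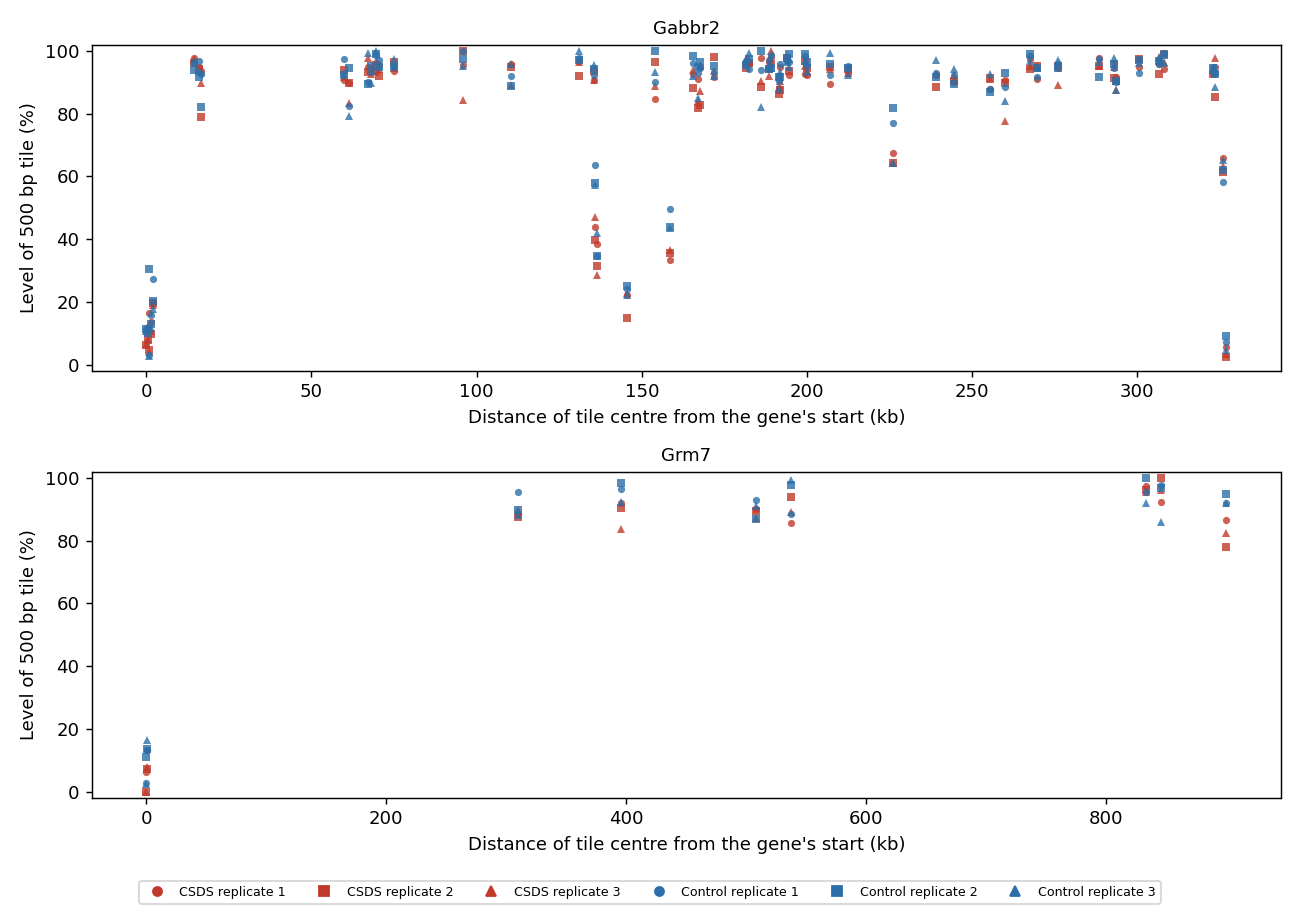
Methylation level (%) of each 500 bp tile of Gabbr2 (top) and Grm7 (bottom) against the distance of the tile's centre from the annotated gene start (kb); red points are the CSDS libraries and blue points the Control libraries. In Gabbr2 the tile 135963 bp from the start has all 3 CSDS points (39.6% to 47.0%) below all 3 Control points (57.1% to 63.7%), and in Grm7 the same holds at the last tile.

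The remaining genes of both pathways were counted beside the list. Of 46 such genes, among them further receptor subunits, uptake transporters, enzymes and scaffold proteins of the synapse, 34 had an end window. Of their 43 windows 37 were lower in CSDS, against 91.5% of all windows. In 10 of the 43 all CSDS libraries lay below all Control libraries, against 31.9% of all. The quasi-binomial F test called 0 of them, and 12 had an unadjusted p under 0.05, against 34.3% of all. Their median difference was −3.12 points, and 0.107 after correction. Of 44 interiors 41 were lower in CSDS, against 82.2% of all, with a median difference of −1.71. In 12 of the 44 all CSDS libraries lay below all Control libraries, against 23.4% of all. After correction this held in 4 of the 44, against 10.1% of all, and the median difference was −0.345, beside −0.48 over all interiors. The windows lowest against Control were at Shank1, a scaffold of excitatory synapses, with 6.24% ± 2.08 in CSDS and 12.6% ± 0.931 in Control, and at Cacng3, an auxiliary protein of AMPA receptors, with 10.5% ± 3.15 in CSDS and 16.7% ± 3.21 in Control (SD, n = 3 each). The largest differences the other way were 1.71 points at the start of Gabrr3 and 1.16 at the start of Dlg4, both on 3 cytosines.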

How the data were processed

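Genomic DNA of male germ cells was made into bisulfite libraries, with 3 CSDS and 3 Control libraries grouped by their titles, and trimmed with Trim Galore 0.5.0 and aligned with Bismark 0.20.0 to GRCm38, per the submitters' processing notes. The deposited tables give, per the file headers, for each CpG cytosine, a read count (the coverage) and the percent read as C or as T. Duplicate handling and conversion rate are not given in the sources used here. Percent times count gave whole numbers to within 1e-06, and these were taken as methylated and unmethylated counts. Cytosines with coverage of at least 10 in all 6 libraries were used (2210988, less 4668 that any library covered among its top 0.1%), with strands kept apart. Reads are not known to be independent molecules, so read numbers bound the counting error only.

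Features needed 3 cytosines: windows of 1000 bp either side of each gene end, interiors and 500 bp tiles. Gene bounds came from a GRCm38.p6 table without exons. Levels are means over cytosines. Summed counts were fitted over all features of a kind by logistic regression on group, with quasi-binomial dispersion moderated by limma 3.58.1 (R 4.3.3), held at 1 or above, and an F test with Benjamini-Hochberg adjustment. A feature was called at an adjusted p under 0.05 and a difference of at least 10 points. An exact permutation test of 3 against 3 libraries cannot go below 0.1 and was not used. The correction divides the unmethylated share by 1 minus the median share read as C at 27 mitochondrial cytosines. It assumes these to be unmethylated and one rate to hold everywhere. Limma on log2 of methylated over unmethylated reads (pseudocount 1) was an alternative. The fit was also run on simulated gene-end windows, with a lower dispersion than was estimated for the measured ones. That run therefore does not show how the fit performs on these data. Interiors and tiles were not simulated.

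The genes, lists and tests were chosen with earlier results of these data known. Named features are, per class and context, the 4 of largest difference, the lowest and highest level, all called features and, among tiles, the 5 of smallest p each way whose groups do not overlap. Further features named for their family, for groups that do not overlap or by tiles of at least 10 points were chosen after their values were seen. Same-numbered libraries did not deviate together over gene ends (correlations −0.081, −0.06 and −0.009), so the main model has no block. Marker lists for other cells were measured at gene ends in the same way. Sertoli genes had a median of 15.8% in CSDS and 19.9% in Control, Leydig genes 43.6% in CSDS and 47.4% in Control, neural genes 11.6% in CSDS and 18.0% in Control, and broadly expressed genes 9.99% in CSDS and 13.7% in Control. Known starts made up 2 of 10 Sertoli, 3 of 6 Leydig, 2 of 5 neural and 12 of 16 broadly expressed windows. These medians therefore mix starts with other ends and do not compare with each other or with medians over starts. Starts of maternally imprinted genes had 15.3% in CSDS and 19.1% in Control.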

Additional observations from a re-analysis of the deposited data

How the results depend on the processing

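Under a coverage minimum of 20, no coverage cap, reads summed over cytosines, at least 10 cytosines, merged strands and windows of 500 bp, all 4 median differences kept their direction and moved by less than the spread between replicates, and no feature was called. Limma called 13 gene-end windows, 0 interiors and 0 tiles. A dispersion trend on coverage, chosen after seeing the data, called 71 windows, 0 interiors and 260 tiles, none of them in a member. With the replicate block 0 windows, 0 interiors and 0 tiles were called; the numbers do not pair the libraries, and block results changed no call. With each library left out in turn, between 0 and 268 windows, 0 and 35 interiors and 0 and 2344 tiles were called, the upper values without CSDS replicate 1; the cause was not tested. The tile beyond the stop of Grin1 passed the threshold, at −11.3 points, without that library.

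The mitochondrial correction moved the median difference to −0.458 for glutamate ends, 0.340 for GABA ends and −1.17 for glutamate interiors. With a library left out, the uncorrected medians ran from −4.77 to −2.55 for glutamate ends, −4.14 to −2.10 for GABA ends, −2.80 to −2.01 for glutamate interiors and −2.51 to −1.53 for GABA interiors. With the correction as well, chosen after seeing the data, they ran from −0.966 to −0.156, −0.609 to 0.941, −1.59 to −0.83 and −0.97 to 0.397. Member windows with groups apart numbered 3 after correction (6.98%, against 11.8% of all windows) and 17 at a coverage minimum of 20 (42.5%, against 34.4%). With a library left out they ran from 10 to 38 (23.3% to 88.4%, against 34.9% to 77.1%), where 3 against 2 libraries separate more easily. Member interiors with groups apart numbered 9 after correction (23.1%, against 12.7% of all) and ran from 16 to 26 (41.0% to 66.7%, against 30% to 51.7%).

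Of 467 alternative values of 31 named features, 453 kept direction and side of the threshold, 12 reversed and 2 newly passed it. The correction reversed the stop of Grin2d (2.41), the start of Gabrg1 (2.11) and the interior of Gabra5 (0.841). At the first 2 the corrected Control mean is below 0, so those corrected values are no possible levels. With a library left out, Gabrg1 ran from −4.17 to 1.46, reversed without Control replicate 1. The stop of Slc1a2 ran from −2.24 to 0.767 and reversed without CSDS replicate 1 (0.637), Control replicate 1 (0.61) or Control replicate 2 (0.767). The interior of Gabra4 ran from −0.91 to 1.76 with a library left out and reversed at a coverage minimum of 20 (−0.953), with summed reads (−0.848), and without CSDS replicate 1 (−0.91), Control replicate 2 (−0.118) or Control replicate 3 (−0.301). Windows with few cytosines rest on 65 to 415 reads per library at the starts of Gabrg1 and Grm3 and the stops of Slc1a2 and Grin2d.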
